A study of Mus musculus with 41 samples.

Results

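RGS proteins (regulators of G protein signalling) are the off switches of G protein coupled receptors: they speed up GTP hydrolysis by the alpha subunits of the Gi and Gq classes and so shorten the signal of chemokine, hormone and neurotransmitter receptors. In leukocytes, members of the R4 family set how strongly a cell responds to a chemokine, and in vessel walls others dampen the signals of vasoconstrictors. The present description covers 9 RGS genes in lung and liver of mice that inhaled nanoTiO2: Rgs1, Rgs2, Rgs3, Rgs4, Rgs5, Rgs16 and Rgs18 of the R4 family, Rgs10 of the R12 family and Rgs19 of the RZ family. They were found by gene name on the mRNA array, where 18 probes of 41174 bore one of the 9 names, out of 27962 gene names in all. The set was chosen by gene name with measured values in view, namely the exposure differences in lung, that of Rgs1 among them, so the comparison of exposed with control lung is given as a description, without a test.

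The mice were female C57BL/6 of the substrain C57BL/6BomTac, with an age label equivalent to gestation day 4. They had been mated and had not conceived. Exposed mice inhaled 40 mg nanoTiO2/m3 (UV-titan, a surface-coated rutile titanium dioxide) for 1 h per day on 11 days and were killed 5 days after the last exposure, and control mice breathed filtered air on the same schedule. Lung arrays came from 7 exposed and 6 control mice and liver arrays from 7 exposed and 8 control mice, and 12 mice were measured in both tissues. Each array set the RNA of 1 mouse (Cy5) against a common reference pooled from 11 mouse cell lines (Cy3), so each value is a log2 ratio over that reference and levels of different probes are not compared.

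Lung and liver arrays fitted their labels. All 7 measured lung epithelial markers were higher in control lung than in control liver, with Scgb1a1 6.42 ± 0.15 (SE) higher on the log2 scale (adjusted p = 3.94e-16), and all 7 measured hepatocyte markers were lower, with an Apoa1 difference of -5.33 ± 0.06. The 6 heart muscle markers were also all higher in control lung, with their mean log2 ratio ranging from 1.45 to 3.80 between control lungs and from 2.62 to 3.94 between exposed lungs. Between 55.1% and 70.5% of spots were well above background in the Cy5 channel. The exposed mice always lay at array positions 1 and 2 and the controls at positions 3 and 4, so position and exposure cannot be told apart, and 1 lung slide held exposed mice only. In whole tissue, fewer cells of a type and less RNA per cell cannot be told apart.

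The array reads each gene through 60-base probes. The first 30 bases of 6 of them are shown, because Rgs1 and Rgs16 rest on a single probe each. Between control lung and control liver, the probe pair shown differed in size for Rgs2 and in direction for Rgs3. Positions are those of the 30 bases on build mm7 as the lung files give them, read 5′ to 3′, and no base is singled out by capitals.
Rgs1, chr1:144171143-144171172, minus strand: cccttggataaccagtccaaaagtatatag
Rgs16, chr1:153706094-153706123, plus strand: gagagaactcttttaagtataatattgtgt
Rgs2, brighter probe, chr1:143927474-143927503, minus strand: agggtgttgacgttcttaggactacagatc
Rgs2, dimmer probe, chr1:143926408-143926437, minus strand: ctatttgccaaaagaaatagtctttatgac
Rgs3, variant 1 probe, chr4:62093420-62093449, plus strand: tgagtcctttggccctttgggagctggaat
Rgs3, variant 2 probe, chr4:62123297-62123326, plus strand: gagcttcctgcaggacaagatctccctccc
Of the 9 genes, 6 lie on chromosome 1 (Rgs1, Rgs2, Rgs4, Rgs5, Rgs16 and Rgs18), and all 9 names were matched in the RefSeq gene table of assembly GRCm38.p6. Among the RGS genes looked up there, the order along chromosome 1 is Rgs2, Rgs13, Rgs1, Rgs21 and Rgs18, followed by Rgs8, Rgs16, Rgs5 and Rgs4. Whether a probe lies in an exon or UTR was not determined here.

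**Figure D1:**
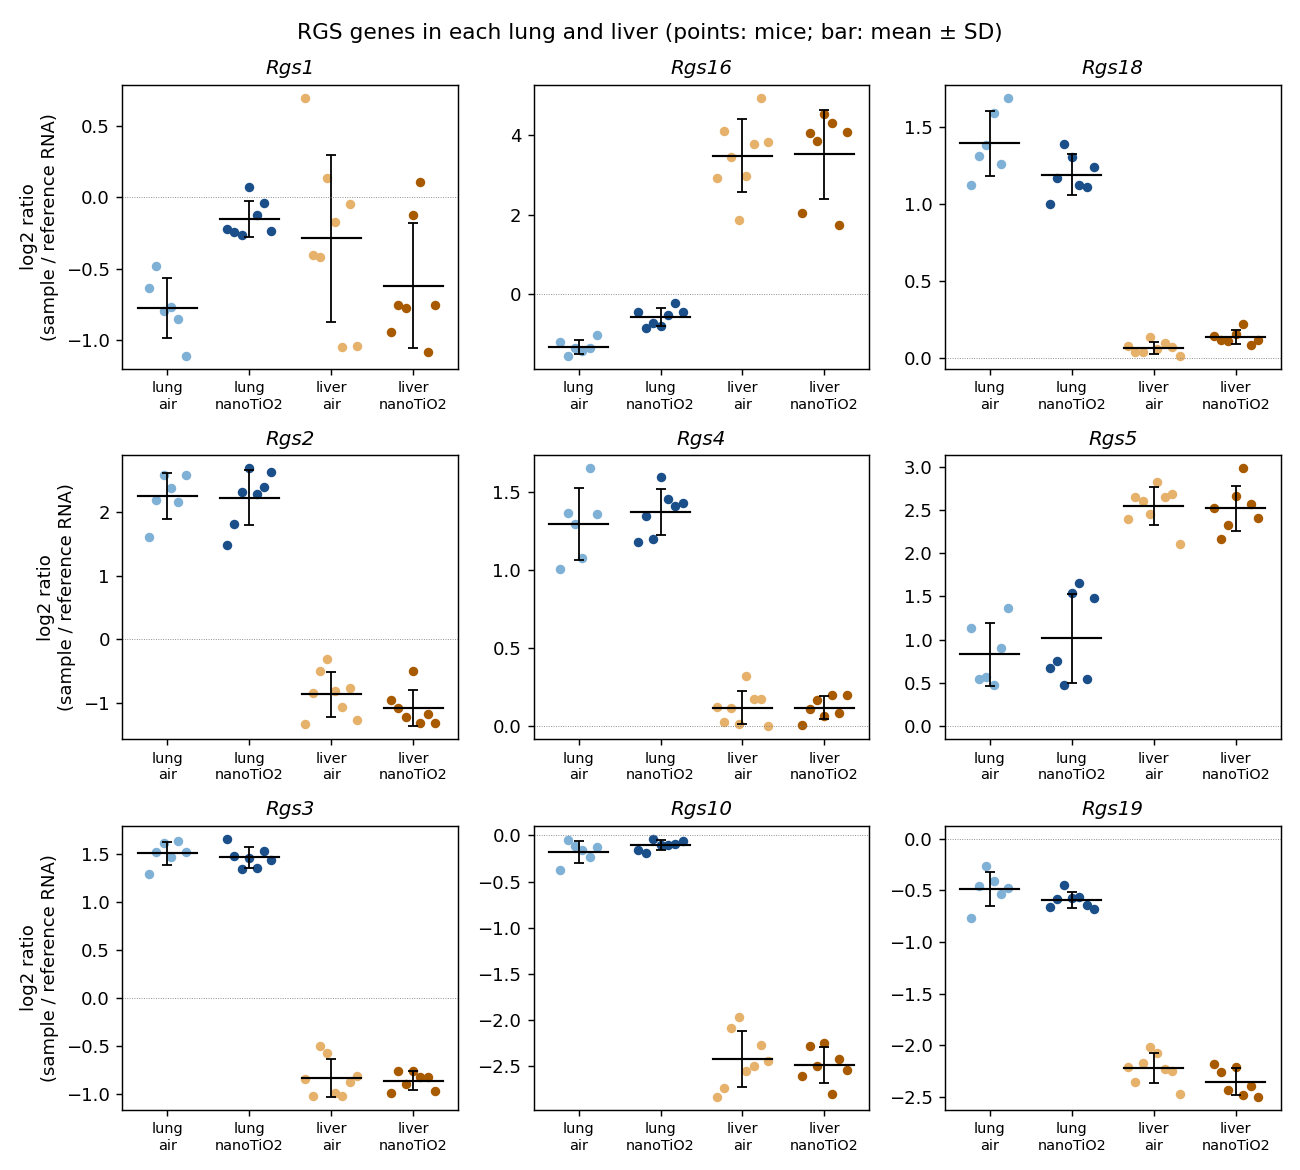
Log2 ratio of sample over reference RNA (vertical axis, own scale in each panel) for the brightest probe of each of the 9 RGS genes in control and nanoTiO2-exposed lung and liver; points are mice, the horizontal bar is the mean and the whiskers are ± 1 SD. The exposed lungs lie above all control lungs for Rgs1 and Rgs16, Rgs16 is far higher in liver than in lung, and the liver values of Rgs18 are those of a probe that was not well above background there.

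In lung, Rgs1 and Rgs16 were the 2 genes of the 9 whose exposed and control mice did not overlap, beside 0.472% of all gene names without overlap (0.35% higher and 0.122% lower in the exposed lungs). Since this contrast chose the genes, nothing is read from that count. Rgs1, which restrains the response of B cells, T cells and macrophages to chemokines, ranged from -0.26 to 0.07 with a median of -0.22 in the 7 exposed lungs. In the 6 control lungs it ranged from -1.11 to -0.48 with a median of -0.78. Every exposed lung thus lay above every control lung, and the means of -0.15 ± 0.13 (SD, n = 7) and -0.77 ± 0.21 (SD, n = 6) differed by 0.62 ± 0.09 (SE), a 1.54-fold higher level. Within the 3 slides that held both groups the difference was 0.33, 0.52 and 0.95.

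Rgs16, which is induced in activated lymphocytes and in liver follows feeding and the time of day, ranged from -0.85 to -0.23 in exposed lungs, with a median of -0.53. The control lungs ranged from -1.55 to -1.04 with a median of -1.35. The groups again did not overlap, and the means of -0.58 ± 0.22 (SD, n = 7) and -1.32 ± 0.18 (SD, n = 6) differed by 0.74 ± 0.10 (SE), a 1.67-fold higher level. The difference was 0.72, 0.65 and 0.54 within the 3 slides, so it was of similar size in each, and it was 1.39 with the scanner software's processed signals without loess. Of all gene names 0.268% were called higher and 0.025% lower in exposed lung (limma, adjusted over all probes).

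Rgs18, the RGS protein of platelets and megakaryocytes, went the other way in lung. Its brighter probe had a median of 1.17 in exposed lungs, from 1.00 to 1.39, and of 1.35 in control lungs, from 1.12 to 1.69, a difference of -0.20 ± 0.09 (SE). Of the 7 exposed lungs, 3 lay below all controls with this probe. The second Rgs18 probe gave -0.23 ± 0.06 (SE), with 5 of the 7 exposed lungs below all controls. With the background model fitted on marked spots too, the difference of the brighter probe was -0.53.

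The other 6 genes overlapped widely between exposed and control lungs. Rgs2, which limits Gq signalling and lowers vascular tone, differed by -0.022 ± 0.198 (SE). Rgs5, the RGS gene best known from pericytes, differed by 0.19 ± 0.22 (SE), with 3 of the 7 exposed lungs above all controls. The differences of Rgs3, Rgs4, Rgs10 and Rgs19 lay between -0.11 and 0.08, and the 5 probes of Rgs3 between -0.043 and 0.15. Over the 9 genes, 5 were higher and 4 lower in exposed lung, with a median of 0.07 beside 0.0018 over all gene names.

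**Figure D2:**
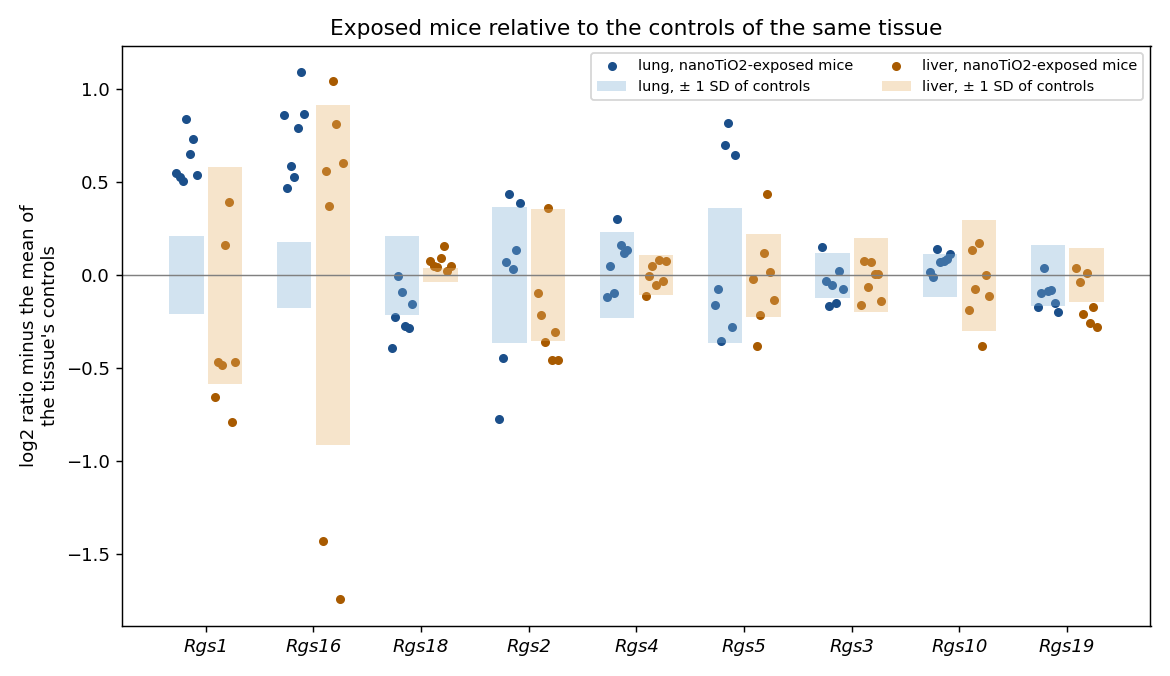
Log2 ratio of each nanoTiO2-exposed mouse minus the mean of the controls of the same tissue (vertical axis) for the brightest probe of the 9 genes; points are mice, blue for lung and brown for liver, and the shaded boxes span ± 1 SD of the controls. All 7 exposed lungs are above 0 for Rgs1 and Rgs16, whereas the exposed livers fall on both sides of 0 for both genes.

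Markers of other cells moved beside these genes in lung. Of 7 measured macrophage markers, 3 were called higher in exposed lung: Marco, a scavenger receptor of alveolar macrophages, by 0.57 ± 0.09 (SE, adjusted p = 0.00940), Cd14 by 0.53 ± 0.09 (adjusted p = 0.0286) and Msr1 by 0.52 ± 0.09 (adjusted p = 0.0183). None was called lower, and the median of the list was 0.36. The 3 calls were lost with median centering and with marked spots in the background model, and 1 was made with processed signals. The mean log2 ratio of the list ranged from 0.94 to 1.17 in exposed lungs and from 0.66 to 0.85 in controls, without overlap, as for Rgs1 and Rgs16. In the control lungs the macrophage means were 0.66, 0.66, 0.66, 0.67, 0.73 and 0.85. In the same order, the Rgs1 values were -0.48, -0.85, -0.64, -0.79, -0.76 and -1.11. The Rgs16 values were -1.55, -1.36, -1.21, -1.35, -1.42 and -1.04. In the exposed lungs the macrophage means were 0.94, 0.95, 1.01, 1.01, 1.02, 1.09 and 1.17. There the Rgs1 values were -0.12, -0.22, -0.04, -0.23, -0.24, -0.26 and 0.07 in the same order. Those of Rgs16 were -0.53, -0.46, -0.23, -0.45, -0.85, -0.73 and -0.79. All 7 platelet and megakaryocyte markers had negative differences, none of them called, with a median of -0.18, and their mean ranged from 0.38 to 0.72 in exposed and from 0.49 to 0.99 in control lungs. All 7 hepatocyte markers had positive differences in lung, none called, with their mean from 0.58 to 2.33 in exposed and from 0.34 to 1.03 in control lungs, and Ttr was well above background in only 1 of the 13 lungs. In the exposed lungs with hepatocyte means of 0.58, 0.70, 0.95, 1.16, 1.71, 1.88 and 2.33, the Rgs16 values were -0.73, -0.23, -0.85, -0.45, -0.79, -0.53 and -0.46 in the same order. In the control lungs the hepatocyte means were 0.34, 0.51, 0.66, 0.86, 0.96 and 1.03. The Rgs16 values were -1.35, -1.42, -1.21, -1.36, -1.04 and -1.55 in the same order. None of the 6 B cell, 8 T cell, 5 natural killer cell or 7 neutrophil markers was called in either direction, with list medians of 0.00071, 0.048, -0.097 and -0.23. The part of these cell types in the Rgs1, Rgs16 and Rgs18 differences was not tested.

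**Figure D3:**
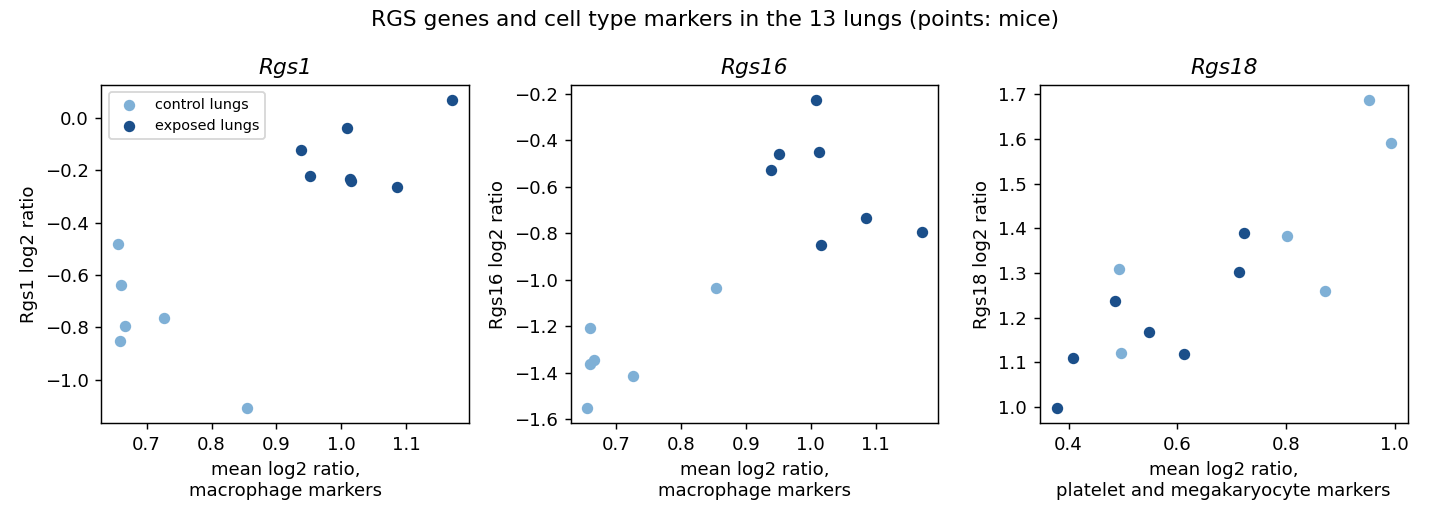
Log2 ratio of Rgs1, Rgs16 and Rgs18 in each lung (vertical axes) against the mean log2 ratio of macrophage markers (left and middle panels) or of platelet and megakaryocyte markers (right panel); points are mice, light blue for controls and dark blue for exposed. The 7 exposed lungs are set apart from the 6 controls in both macrophage panels, and the groups overlap in the platelet panel.

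The receptors and G proteins on which RGS proteins act did not pass the test in lung. None of the 18 measured leukocyte G protein coupled receptors was called in either direction. Among them, the formyl peptide receptor genes Fpr1 and Fpr-rs2 differed by -0.45 ± 0.10 (SE, adjusted p = 0.109) and -0.44 ± 0.12 (SE, adjusted p = 0.301). With the scanner software's processed signals 1 receptor gene was called higher, and without the array of exposed mouse 20, 1 was called lower. None of 9 Gi and Gq alpha subunits was called, and Gnai2, the main Gi subunit of leukocytes, differed by -0.25 ± 0.09 (SE, adjusted p = 0.569). None of 8 genes of other RGS families and neither of the 2 other measured R4 genes, Rgs8 and Rgs13, was called, and Rgs13 and Rgs8 were well above background in no lung.

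The genes most like Rgs1 over the 13 lungs, among 16050 gene names well above background in all of them, were Ms4a7 (r = 0.95), Cd86 (0.93), Ccl7 (0.92), Hmgcs1 (0.92) and Trem2 (0.91). After the group means were subtracted the correlations were 0.71, 0.85, 0.54, 0.67 and 0.46, so that Cd86, a costimulatory protein of antigen-presenting cells, followed Rgs1 most closely among these 5 within the groups. For Rgs16 they were Malt1 (r = 0.94), D17H6S56E-5 (0.93), Fgfr2 (0.93), Itih1 (0.93) and Steap4 (0.93), and 0.81, 0.61, 0.71, 0.78 and 0.66 after the group means were subtracted. No gene was in both sets of 5. The genes were picked by r over both groups, so the exposure difference in lung enters the ranking. The values after subtraction come from the same lungs as the pick. All points share the same arrays and reference, and the correlations describe these lungs only.

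In liver, none of the 9 genes was called between exposed and control mice, nor was any other gene name (0% higher and 0% lower, limma, adjusted p = 1.00 for each of the 9), and at an unadjusted threshold of 0.05 none of the 9 passed either. The exposed and control livers overlapped for all 9, and did not for 0.0322% of all gene names (0.0179% higher and 0.0143% lower in the exposed livers). Rgs1 ranged from -1.08 to 0.10 in exposed livers, with a median of -0.75, and from -1.05 to 0.69 in control livers, with a median of -0.29. The groups overlapped, and the difference was -0.33 with a 95% confidence interval from -0.84 to 0.18. Within the 4 liver slides it was 0.60, -0.37, -1.09 and -0.62, so the sign was not the same on every slide. The difference between the tissues in response was not tested.

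Rgs16 had the widest spread between mice. It ranged from 1.74 to 4.53 in exposed livers, with a median of 4.05, and from 1.88 to 4.94 in control livers, with a median of 3.62. The exposed mice fell into 5 livers between 3.86 and 4.53 and 2 at 1.74 and 2.06, and the lowest control liver was at 1.88 and the next at 2.92. Its SD within groups of 1.02 was larger than that of 99.8% of 14862 gene names well above background in all livers, whose median SD was 0.15. In lung the SD of Rgs16 was 0.20, larger than 86.5% of genes. The liver difference of 0.031 therefore had an interval from -0.96 to 1.02, which includes a change of the size described in lung.

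For the remaining genes the liver intervals were narrower. Rgs2 differed by -0.22 with an interval from -0.54 to 0.10. Rgs5 differed by -0.025 with an interval from -0.26 to 0.22. Rgs3, a broadly expressed R4 member, differed by -0.029, and Rgs10, which is abundant in macrophages and microglia, by -0.064. Rgs19, which binds Gi alpha subunits at intracellular membranes, differed by -0.13 with an interval from -0.28 to 0.02. Rgs4 was well above background in only 3 of the 7 exposed and 3 of the 8 control livers, and Rgs18 in none of the 15. Of the 9 genes 3 were higher and 6 lower in exposed liver, with a median of -0.029 beside -0.003 over all gene names.

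Without exposure, 8 of the 9 RGS genes differed between control lung and control liver. Rgs2, Rgs3, Rgs4, Rgs10, Rgs18 and Rgs19 were higher in lung and Rgs5 and Rgs16 higher in liver, and none of these 8 overlapped between the tissues, beside 43% of all gene names without overlap (23.9% higher in lung and 19.1% higher in liver). Of all gene names 31.2% were called higher in lung and 28.5% higher in liver, so calls are common in this contrast, and 6 of 9 in the first direction and 2 of 9 in the second are read against those shares. The tissues were hybridized on separate slides and read with different versions of the feature extraction software, which also made the calls above background, so slide, software and tissue cannot be told apart.

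Rgs16 had the largest difference of the 9 between the tissues. The control lungs reached -1.04 at most and the control livers were at 1.88 at least, and the difference of -4.81 ± 0.33 (SE) amounted to a 28.0-fold higher level in liver (adjusted p = 1.07e-09). Rgs2 was the largest in the other direction. Its brighter probe lay from 1.61 to 2.59 in control lungs and from -1.34 to -0.31 in control livers, a difference of 3.12 ± 0.17 (SE), or 8.70-fold (adjusted p = 4.43e-11). The dimmer Rgs2 probe, whose sequence is given above, showed 0.99 ± 0.11 and was well above background in only 1 of the 8 control livers, so both probes had the same direction and differed in size.

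Rgs5 was higher in liver with both of its probes, by -1.71 ± 0.14 (SE, lung minus liver, adjusted p = 8.63e-09) and -0.99 ± 0.09, the second well above background in 4 of the 6 control lungs. The pericyte and smooth muscle markers went the opposite way. All 8 of them were called higher in lung, led by Cnn1 (5.32 ± 0.19 SE), Notch3 (3.31), Cspg4 (2.87) and Tagln (2.77), with a list median of 2.75 and a list mean from 1.23 to 1.80 in control lungs against -1.64 to -1.35 in control livers. Rgs5 thus had its higher level in the tissue in which all 8 of these markers were lower.

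Rgs18 was higher in lung, as were the markers of its cell type and of most other cell types listed. It was well above background in all 6 control lungs and in none of the 8 control livers with either probe, so no fold is given. The brighter probe lay from 1.12 to 1.69 in control lungs and from 0.013 to 0.13 in control livers, without overlap (limma, adjusted p = 3.96e-11). Of 7 platelet and megakaryocyte markers 6 were called higher in lung, led by Gp9 (2.28 ± 0.11 SE) and Treml1 (1.86), with Gp5 at 0.82 although well above background in only 4 of the 8 control livers, and Gp1ba in none. This direction is not particular to platelets. The list median was 0.82, beside 1.31 for natural killer and 1.36 for B cell markers, and among the cell type lists only hepatocyte markers had a negative median (-5.33). Rgs4, known from heart and neurons, was 1.18 ± 0.09 (SE) higher in lung (adjusted p = 1.92e-09) although its probe was well above background in only 3 of the 8 control livers. Its second probe was well above background in 3 of the 6 control lungs and in no control liver, and no fold is given for it.

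Rgs3 gave opposite answers depending on the probe. The probe assigned to transcript variant 1 was 2.34 ± 0.09 (SE) higher in lung, from 1.29 to 1.64 in control lungs and from -1.02 to -0.50 in control livers (adjusted p = 1.83e-13). Of the 4 probes assigned to variant 2, the brightest was higher in liver by -0.67 ± 0.06 (lung minus liver, adjusted p = 5.45e-08), with 0.37 ± 0.17 (SD, n = 6) in control lung and 1.03 ± 0.06 (SD, n = 8) in control liver. The other 3, which the array maps further downstream, differed by 0.0051 to 0.14 and were not called. The 2 that are called do not overlap between the tissues, and all 5 probes were well above background on all 28 arrays.

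**Figure D4:**
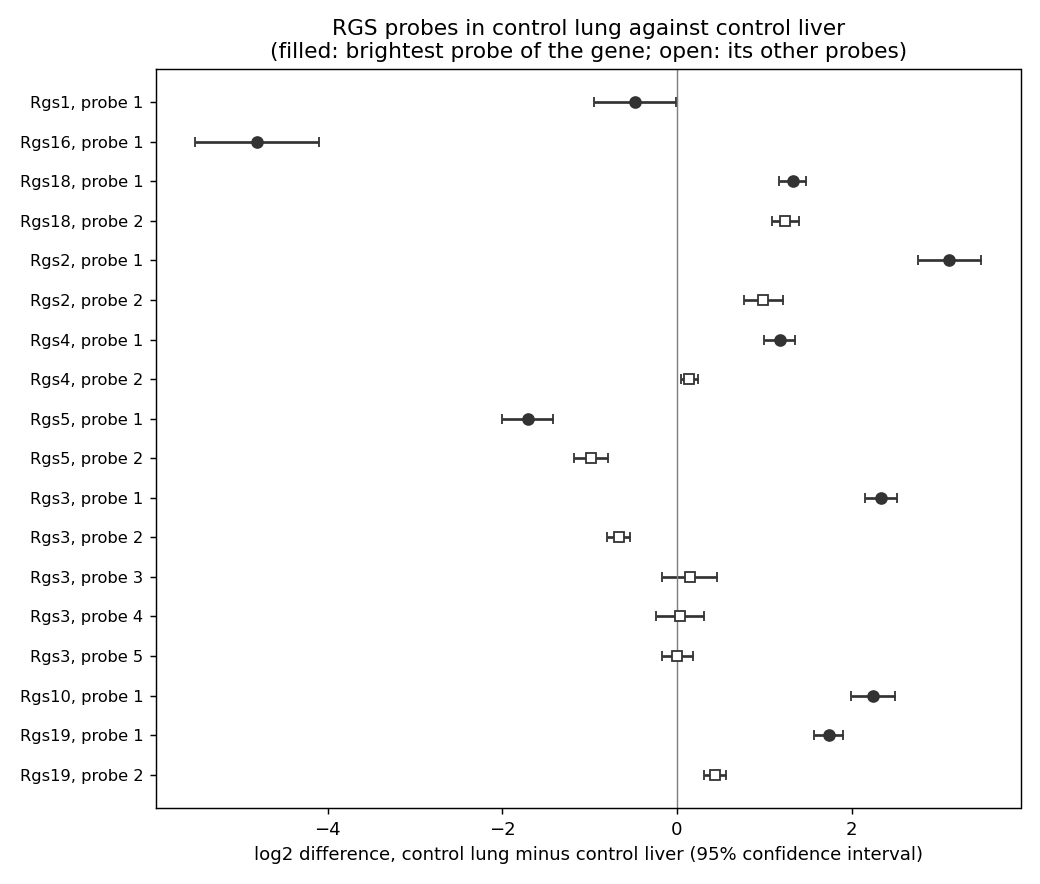
Log2 difference of control lung minus control liver (horizontal axis) for all 18 probes of the 9 genes, with 95% confidence intervals; filled circles are the brightest probe of a gene and open squares its other probes, numbered by brightness. Rgs16, Rgs5 and Rgs1 lie left of 0 (higher in liver), Rgs1 at -0.48 and not called after adjustment. The first and second Rgs3 probes lie on opposite sides at 2.34 and -0.67. Both Rgs18 probes and the second Rgs4 probe were well above background in no control liver.

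Rgs10 and Rgs19, the 2 members outside the R4 family, were both higher in lung. Rgs10 lay between -0.38 and -0.05 in control lungs and between -2.83 and -1.97 in control livers, a difference of 2.25 ± 0.12 (SE, adjusted p = 2.14e-11). The probes of Rgs19 differed by 1.74 ± 0.08 and 0.43 ± 0.06, with the same direction. Rgs1 was the gene of the 9 that was not called. Its difference of -0.48 ± 0.22 (SE, adjusted p = 0.0722) pointed to liver, and it became -0.57 with an adjusted p of 0.0105 when the 6 control mice measured in both tissues were compared with themselves, mouse number being a block. It was also called when the deposited log2 table was used (-0.60, adjusted p = 0.0269) and when control mouse 34 or 45 was left out of the livers (-0.59 each, adjusted p = 0.0207 and 0.0210). Control livers ranged from -1.05 to 0.69 for Rgs1 against -1.11 to -0.48 for control lungs, so the ranges overlapped.

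Among related genes, 5 of 8 of the other RGS families were called higher in control lung and none lower, led by Rgs12 (2.07 ± 0.06 SE), Rgs14 (1.77), Rgs9 (1.64) and Rgs11 (1.43), of which Rgs9 was well above background in only 4 of the 8 control livers. The median of these 8 was 1.06, beside -0.014 over all gene names. Of the Gi and Gq alpha subunits 6 of 9 were called higher in lung, led by Gnai1 (2.67), Gnai2 (1.98), Gnaq (1.66) and Gna14 (0.92). Gna15 was called lower (-0.22). Gnb5, the beta subunit that pairs with the R7 family, was 0.33 ± 0.09 (SE) higher in lung (adjusted p = 0.00426). Of the leukocyte receptors 12 of 18 were called higher in lung, led by Cxcr4 (2.31), Ccr2 (2.27), Ccr7 (2.15) and Blr1 (1.84). C3ar1 was called lower (-0.25). In the 8 control livers Cxcr4 and Ccr2 were well above background in 3, Blr1 in 4 and Ccr7 in 5, so the sizes of these differences rest partly on dim spots. All 6 B cell markers, which mark the cells in which Rgs1 is best known, had positive differences, and 5 were called higher in lung. Their median was 1.36, whereas Rgs1 was not called. Of the 7 macrophage markers 5 had positive differences, of which 3 were called higher in lung. The other 2, Msr1 (-1.05) and Emr1 (-0.43), were called higher in liver.

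Mice also differed within their groups. In lung, Rgs5 and Rgs2 were the most variable of the 9, with SDs within groups of 0.45 and 0.41 that exceeded those of 98.4% and 98.1% of 16051 gene names. The 3 lowest Rgs2 values, 1.48, 1.61 and 1.81, were those of exposed mouse 1, control mouse 24 and exposed mouse 7, all of hybridization block 1. The 4 lungs of that block also had the 4 lowest means of the circadian clock genes, from -0.04 to 0.21 against 0.38 to 0.90 in the other 9 lungs. This mean runs over 12 genes that need not move together. Their exposure differences in lung were positive for 9 and negative for 3, so the mean is not a measure of clock time. The part of the clock genes in the Rgs2 spread was not tested. In liver, Rgs1 was second to Rgs16 among the 9, with an SD of 0.52 that exceeded 98.4% of genes, against 0.17 in lung.

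Over the 12 mice with both tissues, the deviations from the group means in lung and liver were correlated past the threshold for none of the 9 genes. The Pearson correlation was 0.53 for Rgs4, 0.51 for Rgs1 and 0.44 for Rgs5, and -0.43 for Rgs16 (two-sided exact permutation test, p = 0.111, 0.123, 0.209 and 0.194, each with an adjusted p of 0.469 over the 9 genes). Spearman's rho for these 4 was 0.46, 0.58, 0.54 and -0.45. The other 5 genes had correlations between -0.092 and 0.33. Without the 2 mice farthest from the median lung deviation, r was 0.32 for Rgs4, 0.50 for Rgs1, 0.15 for Rgs5 and -0.35 for Rgs16. Within hybridization blocks, where 10 mice could be used and the smallest p possible is 0.0625, it was 0.098, -0.057, -0.55 and -0.33.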

How the data were processed

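RNA of each mouse (Cy5) and reference RNA (Cy3) were hybridized to 2-colour arrays without dye swap. The deposited scanner files hold the intensity of 45018 spots per array, and the authors' series table holds log2 ratios after their own normalization. These correlated with the uncorrected loess values here (r from 0.994 to 0.998), so their direction is that of sample over reference. A correlation does not show whether the scale is the same. Outlier arrays had been removed by the authors.

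Median spot signals were background-corrected with normexp (offset 50) after the 0.258% to 0.576% of spots that carried an outlier mark from the scanner had been set to missing, since with them the fitted background mean fell to -972 on 1 array, and were normalized by loess within each array (limma 3.58.1, R 4.3.3). Control spots were dropped, and replicate spots were averaged per probe. Groups were compared with limma (lmFit, eBayes), which takes the place of the MAANOVA of the methods, with a threshold of 0.05 after Benjamini-Hochberg adjustment over all probes. A gene with several probes is represented by the one with the highest mean signal. Array number and signal over background limit the precision.

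Members, lists and this background step were chosen with earlier results of these data known. Named genes were all member probes, at most 4 called genes per list and contrast with the largest difference, and the 5 genes most correlated with Rgs1 and Rgs16 in lung; the receptors and subunits named without a call were chosen after their values were seen. Lung and liver arrays with the same mouse number and exposure were taken to be of the same animal. Over 13619 genes the deviations of a control mouse's tissues correlated with r from -0.0092 to 0.17, and those of an exposed mouse with r from -0.11 to 0.29. The alternatives were other background corrections, median centering, the authors' table, a filter on dim probes, 1 value per gene name, slide as a block, mouse number as a block and leaving out each array. The microRNA arrays were not used here.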

Additional observations from a re-analysis of the deposited data

Results flagged for a closer look

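For Rgs18, every exposed lung was below the mean of the control lungs and every exposed liver above the mean of the control livers. The liver difference was 0.069 on the log2 scale and the lung difference -0.20, and the difference between the tissues was not tested. The Rgs18 probe was well above background in no liver, so the liver value is one of a probe without a measured level there. Dixon's test, which looks at a single extreme value, flagged no mouse in any of the 36 combinations of gene and group. It cannot flag low values that lie together, such as the exposed livers at 1.74 and 2.06 for Rgs16 (ratio 0.11).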

How the results depend on the processing

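The counts of the 9 genes called were 0 in liver under all 24 alternatives, 8 or 9 between the tissues under all 23, and 0 of 9 correlations under all 8. In lung the contrast chose the genes, so no count of called genes among the 9 is given there. Why the lung calls over all gene names changed with the processing was not tested. Over all gene names the lung calls fell from 75 higher to 6 with median centering and 11 with the marked spots, and from 7 lower to 0 and 1. The lower calls were 11 with 1 value per gene name, 12 with slide as a fixed block and 15 with slide as a random block, and from 4 (without control mouse 27) to 15 (without exposed mouse 20) when 1 array was left out. Macrophage markers called higher in lung fell from 3 to 0 with median centering and with marked spots, and to 1 with processed signals. With mouse number as a replicate block 9 of 9 genes were called between the tissues against 8 without it, the addition being Rgs1 (-0.57), and no other call of the 9 changed. Leukocyte receptors called lower in lung than in liver were between 0 and 2 over the alternatives against 1. Of the values of single genes between the tissues, 203 of 207 kept their call, and their direction where the gene was called. In liver 214 of 214 stayed uncalled, whatever their sign. Signs did change there: over the processing alternatives Rgs10 ranged from -0.27 to 0.13 and Rgs3 from -0.16 to 0.14. In lung 192 of 198 stayed within 1 SD of the main value. Dim probes limit the results for Rgs18 and Rgs4 in liver.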
